A study of Mus musculus with 12 samples.

Results

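The genes that make, break down and regulate polyamines, and those that return the methionine carbon used in the process, were followed through the early reprogramming of mouse fibroblasts with and without vitamin B12 (B12). The set held 10 genes, found in the count table by the Ensembl identifiers of Odc1, Srm, Sms, Amd1, Sat1, Oaz1, Oaz2, Azin1, Mtap and Adi1, out of 55573 genes in all. The question of the study was how B12 bears on early reprogramming. All 10 passed the filter on low counts, as did 19174 genes in total. The cells were mouse embryonic fibroblasts (MEFs) from E13.5 embryos of strain C57BL/6. Every culture, the uninduced controls included, carried a cassette that doxycycline switches on and that encodes Oct4, Sox2, Klf4 and Myc (together OSKM), the factors used for reprogramming. Cells of 3 embryos, labelled clones 1, 2 and 3, were each kept for 72 h in medium for induced pluripotent stem cells in 4 ways. MEF cultures had no addition, MEF+B12 had 2 µM B12, OSKM had doxycycline, which the labels give as 1 µg/ml and the study's methods as 1 mg/ml, and OSKM+B12 had both, which gave 3 libraries per group and 12 in all. Uninduced cells had no doxycycline, so effects of the drug itself and of the factors cannot be told apart. The sample titles give clone 1 another year than clones 2 and 3, so that year and clone cannot be told apart either.

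Polyamines are small, positively charged metabolites that bind nucleic acids and are needed for growth. Ornithine decarboxylase makes putrescine from ornithine. Spermidine synthase and spermine synthase then lengthen the chain with aminopropyl groups, which come from S-adenosylmethionine (SAM) after its decarboxylation. Each aminopropyl transfer leaves methylthioadenosine, and the methionine salvage pathway turns that residue back into methionine. B12 is the cofactor of methionine synthase, another route to methionine, and methionine from either route can feed the same SAM pool.

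Much of the known control of this pathway acts after transcription, and the counts do not report on it. The sites given here are shown because they make that limit visible. Antizyme (Oaz1, Oaz2) is read through a frameshift at a stop codon when polyamines are abundant, and the GENCODE M21 annotation (GRCm38) writes this site as a gap of 4 bases inside the coding exons of both genes. The capitals mark the slip codon and the stop codon in coding exons of Oaz1 (chr10:80828280-80828309, + strand) and Oaz2 (chr9:65686257-65686286, + strand). In Amd1, the capitals mark the start and stop codons of a short open reading frame of 21 bases in the 5′ leader (chr10:40302155-40302175, − strand), which is known to slow translation of the enzyme when polyamines are high.
Oaz1 frameshift site: cctcggtggtgcTCCTGAtgtccctcaccc
Oaz2 frameshift site: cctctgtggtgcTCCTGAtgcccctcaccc
Amd1 upstream frame: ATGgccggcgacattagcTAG

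The bases upstream of 2 genes are shown because Odc1 is a textbook target of Myc, a factor of the cassette, and because Sms was the gene of the set that differed with B12. The E-box CACGTG, which Myc binds with its partner Max and which reads the same on both strands, was searched in the RefSeq windows of 300 bases (250 before to 50 after each start, GRCm38.p6). It lay in 7.15% of all 32851 windows. Of the set, 7 genes had a window, Sms with 2 windows, and the E-box lay in 1 of the 8 windows. That match was in Sms, 196 bases before the start, in the window of its outermost start, and is marked in capitals in the sequence upstream of the gene (chrX:157492288-157492537, − strand). The upstream bases of Odc1 (chr12:17544623-17544793, + strand), which end where the annotated gene begins, held none, and sites outside these windows were not searched. Srm, Azin1 and Adi1 had no entry.
Sms upstream: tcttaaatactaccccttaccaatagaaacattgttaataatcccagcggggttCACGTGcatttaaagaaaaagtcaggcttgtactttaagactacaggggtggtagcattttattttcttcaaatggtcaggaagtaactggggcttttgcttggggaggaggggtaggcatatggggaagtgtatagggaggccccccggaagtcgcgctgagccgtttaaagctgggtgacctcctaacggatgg
Odc1 upstream: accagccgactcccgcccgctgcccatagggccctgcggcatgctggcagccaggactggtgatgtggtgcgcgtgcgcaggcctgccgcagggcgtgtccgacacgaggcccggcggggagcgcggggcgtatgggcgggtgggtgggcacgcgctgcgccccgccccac

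The libraries held 56971244 to 79236795 counted read pairs, and the members had between 486 counts (Sms, lowest library) and 21096 counts (Oaz1, highest library). Levels are given in counts per 1000000 (CPM), which were scaled here for library composition, and adjusted p-values are from the quasi-likelihood test of edgeR over all 19174 genes with a threshold of 0.05. Induction was checked on Pou5f1, which encodes Oct4. It was 0.468, 0.379 and 0 CPM in MEF for clones 1, 2 and 3, and 19.3, 18.5 and 2.86 CPM in OSKM. Myc was 22.5, 16.4 and 18.6 CPM in MEF and 53.4, 44.0 and 20.0 CPM in OSKM. Induction was therefore seen in all clones by Pou5f1, with clone 3 lowest for both genes. Of the other factor genes, Sox2 rose (log2 4.22, adjusted p = 7.13e-05) and Klf4 fell by 0.12 on the log2 scale (adjusted p = 0.0452), both averaged over B12 state. The 12 fibroblast markers were all detected, with a summed level of 97436 to 154530 CPM, and the 15 macrophage markers were all detected too, at 1539 to 3782 CPM in sum. The 7 epithelial markers summed to 4.96 to 21.1 CPM, and the 7 endothelial markers to 43.0 to 146 CPM, with Cldn4 at 0 in MEF and MEF+B12 and Emcn at 0 in MEF. Of the endothelial markers, Tek had up to 9347 counts in a library, against at most 439 for the next, Kdr. Pecam1, Tie1 and Emcn did not pass the filter on low counts. One library stood apart, that of OSKM clone 1, which had the lowest value of the 12 for Oaz1, Oaz2, Azin1 and Sat1 and the highest for Srm and Mtap. The values of the set that it moved most are given with and without it.

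Each member is a protein-coding gene, placed here by GENCODE M21 on GRCm38. Odc1 (chr12:17544794-17551505, + strand) and Adi1 (chr12:28675231-28682175, + strand) lie on chromosome 12, and Amd1 (chr10:40287458-40302186, − strand) and Oaz1 (chr10:80826656-80829290, + strand) on chromosome 10. Srm (chr4:148591503-148594993, + strand) and Mtap (chr4:89137122-89181081, + strand) lie on chromosome 4, Oaz2 (chr9:65668001-65690300, + strand) on chromosome 9 and Azin1 (chr15:38487427-38519266, − strand) on chromosome 15. Sms (chrX:157443855-157492287, − strand) and Sat1 (chrX:155213132-155216449, − strand) lie on the X chromosome. Reads were counted over the exons of each gene with regard to strand.

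All genes of the set were expressed in every library, with Oaz1 and Srm the highest and Sms the lowest in each of the 12. Levels between genes are compared in CPM per kilobase of exon, as means over the 12 libraries with their lowest and highest value. Oaz1, the antizyme that sends ornithine decarboxylase to degradation, was highest at 105 (85.7 to 113). Srm, spermidine synthase, followed at 54.3 (50.5 to 59.1). Odc1, ornithine decarboxylase and the entry step of the pathway, was at 31.2 (26.9 to 34.5) and Oaz2, the second antizyme, at 29.7 (23.3 to 32.0). These 2 ranges overlapped with each other and with that of Sat1, the acetyltransferase that starts polyamine breakdown and export, at 23.7 (19.4 to 27.9). Mtap, which cleaves methylthioadenosine, at 22.3 (20.9 to 24.1), and Amd1, which decarboxylates SAM, at 19.7 (17.7 to 21.8), were not separated from Sat1 or from each other. Azin1, the inhibitor that binds antizyme and so spares ornithine decarboxylase, was at 12.6 (9.21 to 14.1), and its range overlapped with that of Adi1, a late enzyme of methionine salvage, at 10.6 (8.46 to 12.1). Sms, spermine synthase, was the lowest at 1.82 (1.28 to 2.57), with 6010 bases of annotated exon.

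The balance between antagonists could be read within each library as a ratio of levels per kilobase. Oaz1 exceeded Odc1 by 2.74 to 3.80 times and Azin1 by 7.88 to 9.31 times over the 12 libraries. Srm exceeded Sms by 20.9 to 41.7 times, the widest of these ranges. Its 2 ends were MEF+B12 clone 1 and MEF clone 2, which were also the highest and lowest libraries for Sms, while Srm itself ranged only from 80.8 to 94.6 CPM. These ratios are of transcript levels and say nothing of the proteins.

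**Figure D1:**
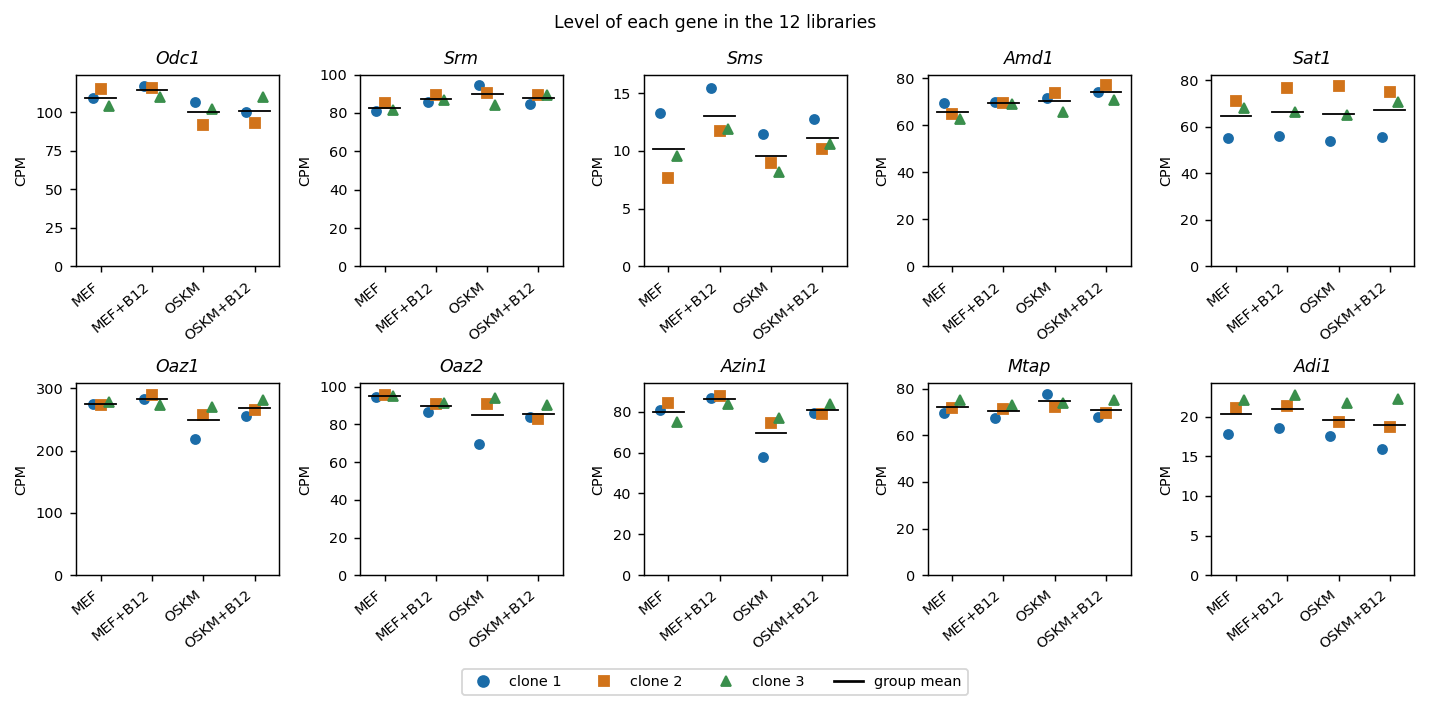
Level of each of the 10 genes in CPM (y axes from 0, each with its own scale) in each of the 4 groups, with 1 point per library, the clone by colour and shape, and a line at the group mean of 3 libraries. Clone 1 is highest for Sms and lowest for Sat1 and Adi1 in every group, and its OSKM library is the lowest point for Oaz1 (219 CPM), Oaz2 (69.8 CPM) and Azin1 (57.6 CPM).

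Some of these transcripts share sequence with other genes, which limits what their counts mean. Of the 31-base words of Amd1, 82.8% also occur in transcripts of other genes, mainly the near-identical Amd2, which took 40.9% of the counts of the pair. Amd1 is therefore uncertain wherever it is named. Processed copies of other members took a share as well. Odc1 had 31.3% of its words in 21 other genes, of which Gm7993 took 7.98% of its sum with Odc1. Oaz1-ps took 38.0% of its sum with Oaz1 and Sms-ps 33.9% of its sum with Sms, with 24% and 18.8% of words shared. The antizyme inhibitor Azin1 overlaps an antisense gene, Gm49077, which had 68 counts over all libraries against 61436 for Azin1.

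The first comparison asked how the set responded to 72 h of induction. Within either B12 state, 0 of 10 genes passed the threshold. Averaged over both B12 states the count was again 0 of 10, with log2 fold changes from -0.16 for Odc1 to 0.092 for Amd1. For comparison, 0.073% of all genes passed in induction without B12, 0.104% with B12 and 9.73% in the average. At an unadjusted p under 0.05 there were 4, 3 and 7 of 10 genes, against 19.0%, 14.9% and 26.8% of all genes, and DESeq2 called 0, 0 and 1. Of all 19174 genes DESeq2 called 487 in induction without B12 and 416 with B12. The median log2 fold change in the average was -0.11 for the set and -0.0028 for all genes tested.

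The estimates for the synthetic enzymes lay on both sides of 0. Odc1 was 109, 115 and 104 CPM in MEF and 106, 91.5 and 102 CPM in OSKM for clones 1 to 3. With B12 it was 117, 116 and 109.9 CPM in MEF+B12 and 100.3, 92.8 and 109.8 CPM in OSKM+B12. It was lower after induction in 6 of 6 pairs of one clone and B12 state, yet in clone 3 by little. The groups overlapped without B12, and with B12 the lowest uninduced and highest induced library lay side by side without overlap. The averaged log2 fold change was -0.16 ± 0.051 (SE), with a 95% interval of -0.27 to -0.046 and an adjusted p of 0.0729, the smallest of the set. The call depended on the setting. DESeq2 and edgeR without the low-count filter placed Odc1 past the threshold (adjusted p = 0.0380 and 0.0410), and so did leaving out clone 3 (log2 -0.23, adjusted p = 0.0230). In the fit without clone 3, 3056 of 19231 genes passed, in place of 1865 of 19174. Without the OSKM library of clone 1 the value of Odc1 was -0.18 with adjusted p = 0.0718.

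For Srm the estimate was above 0. Srm was 80.8, 85.3 and 81.4 CPM in MEF and 94.6, 90.2 and 84.2 CPM in OSKM, and 85.7, 89.5 and 86.7 CPM in MEF+B12 and 84.4, 89.5 and 89.1 CPM in OSKM+B12. The averaged log2 fold change was 0.063 ± 0.035 (adjusted p = 0.275), and 0.036 without the OSKM library of clone 1. Without B12 it was 0.12, and 0.064 once that library, the highest of all for Srm, was left out. Amd1 was 69.5, 64.9 and 62.9 CPM in MEF and 71.6, 73.7 and 65.6 CPM in OSKM. With B12 its levels were 70.0, 69.6 and 69.3 CPM in MEF+B12 and 74.3, 77.0 and 71.0 CPM in OSKM+B12. It was higher after induction in 6 of 6 pairs, with a log2 fold change of 0.092 ± 0.033 (adjusted p = 0.101, and 0.0429 when only library totals were used for scaling). With the counts of Amd2 added the value was 0.077. Sms showed -0.15 ± 0.065 (adjusted p = 0.169) and was lower after induction in 5 of 6 pairs, the exception being clone 2 without B12.

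The estimates for the 3 regulators of ornithine decarboxylase were below 0, and 1 library carried much of that difference. Oaz1 was 275, 273 and 277 CPM in MEF and 219, 257 and 271 CPM in OSKM. Oaz2 was 94.6, 95.7 and 95.2 CPM in MEF and 69.8, 90.9 and 94.1 CPM in OSKM, and Azin1 was 81.0, 84.1 and 75.1 CPM in MEF and 57.6, 74.2 and 76.8 CPM in OSKM. In each case OSKM clone 1 lay well below the other libraries. Without B12 the log2 fold changes were -0.15 ± 0.064, -0.17 ± 0.075 and -0.21 ± 0.086 (adjusted p = 0.251, 0.252 and 0.231). Leaving that library out brought them to -0.066, -0.054 and -0.081. Averaged over B12 state they were -0.11, -0.12 and -0.15, none past the threshold, and without the OSKM library of clone 1 they were -0.070, -0.058 and -0.085. Azin1 passed the threshold when clone 3 was left out (log2 -0.24, adjusted p = 0.0464), in a fit where 3056 of all genes passed in place of 1865. The ratio of Oaz1 to Odc1 was 3.35 ± 0.194 in MEF and 3.34 ± 0.526 in OSKM (SD, n = 3). With B12 it was 3.21 to 3.32 in MEF+B12 and 3.40 to 3.80 in OSKM+B12, without overlap and with no test of the ratio.

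Of the genes of breakdown and salvage, Sat1 and Mtap had estimates near 0 with induction and Adi1 one below 0. Sat1 had an averaged log2 fold change of 0.013 ± 0.033, with a 95% interval of -0.061 to 0.086. Mtap, the first enzyme of methionine salvage, had 0.029 ± 0.035 with an interval of -0.049 to 0.11, and 0.00072 without the OSKM library of clone 1. Adi1 was 17.8, 21.1 and 22.1 CPM in MEF and 17.5, 19.3 and 21.8 CPM in OSKM, with an averaged log2 fold change of -0.10 ± 0.039 (adjusted p = 0.116), and was lower after induction in 6 of 6 pairs. The intervals of Sat1 and Mtap held 0 and that of Adi1 did not, and none of the 3 genes passed the threshold. Beside these results, 4 of 12 fibroblast markers were lower after induction. Of the markers that passed the filter, 3 of 5 epithelial and 2 of 4 endothelial ones were higher. Of 15 macrophage markers, 3 were lower and 1 higher (median log2 difference -0.20), and 0 of 10 proliferation genes passed in edgeR, with 2 at an unadjusted p under 0.05. The part of these markers in the values of the set was not tested.

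**Figure D2:**
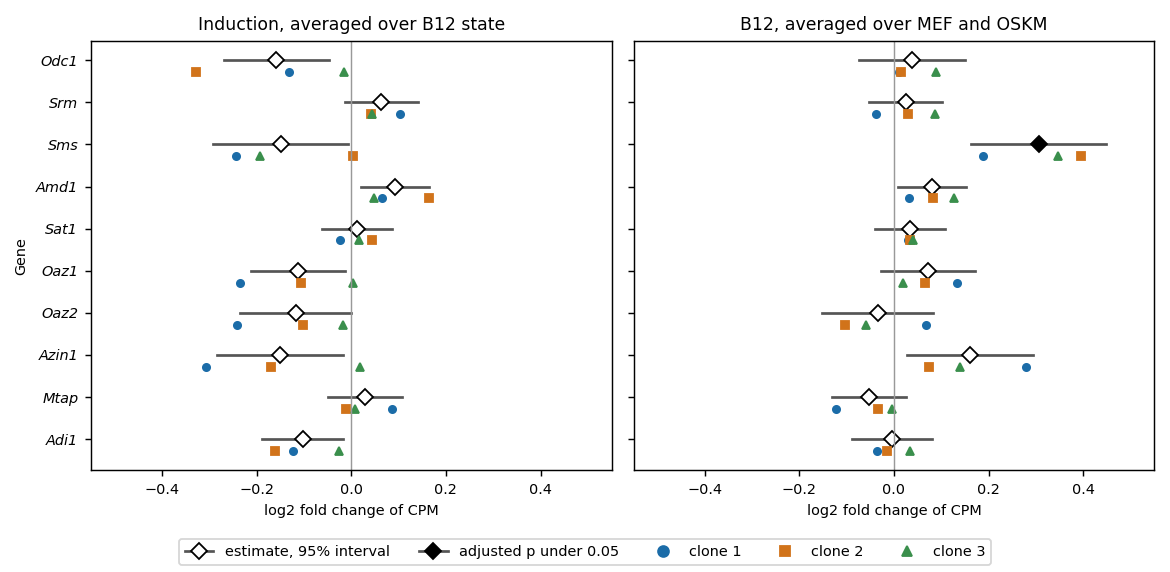
Log2 fold change of each of the 10 genes (x axis) for induction averaged over B12 state (left) and for B12 averaged over MEF and OSKM (right). Diamonds with lines are the estimates of the edgeR fit over 12 libraries with their 95% intervals, filled where the adjusted p was under 0.05, and the small symbols are the differences within each clone. Sms with B12, at 0.31, is the single filled diamond.

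Among 52 further genes of the pathway and its neighbours, listed by role with earlier results of these data known, 42 passed the filter. With induction averaged over B12 state, 3 of the 42 were higher and 2 lower, beside 9.73% of all genes called in either direction. Azin2, a second antizyme inhibitor, fell by 0.42 ± 0.088 on the log2 scale (adjusted p = 0.0235). Its levels were 64.7, 117 and 106 CPM in MEF and 38.6, 79.0 and 98.8 CPM in OSKM, so that it was lower in clones 1 and 2 and close to its start in clone 3. Gpc1, a glypican whose heparan sulfate chains bind polyamines for uptake, fell by 0.28 ± 0.067 (adjusted p = 0.0313). Myc rose by 0.88 ± 0.17 on the log2 scale (adjusted p = 0.0206). The other 2 that passed, named here after their values were seen, were Mxi1, a Max-binding antagonist of Myc, at 0.33 (adjusted p = 0.0256), and Mri1, an isomerase of methionine salvage, at 0.20 (adjusted p = 0.0327). All 5 calls were lost when clone 1 or clone 2 was left out, where 10 and 3 of all genes passed in place of 1865. They were also lost with no replicate block, where 0 genes passed. Gpc1, Mxi1 and Mri1 were lost as well without the OSKM library of clone 1. Without B12 and with B12, 0 of 42 passed in edgeR, with 12 and 8 at an unadjusted p under 0.05 and 1 and 0 in DESeq2.

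The response to induction was also compared between clones, since the factors were not induced alike. Each clone is 1 embryo, so these p-values measure the spread between libraries. Of the set, 0 of 10 genes differed between clones in edgeR, against 2.15% of all genes, with 2 at an unadjusted p under 0.05 (14.8% of all genes) and 0 in DESeq2. Myc was higher after induction by log2 1.18, 1.32 and 0.11 in clones 1, 2 and 3, a difference between clones that passed the test (adjusted p = 0.000653). For Odc1 the same differences were -0.13, -0.33 and -0.016 (adjusted p = 0.150). Its estimate was below 0 in each clone, and any link between the Myc and Odc1 values was not tested. With the OSKM library of clone 1 left out, the difference of Odc1 between clones passed the threshold (adjusted p = 0.0420). It also passed with all of clone 1 left out (adjusted p = 0.0297), where clone 2 lay at -0.33 and clone 3 at -0.016. In these fits 838 of 19499 and 724 of 19102 genes passed, in place of 413 of 19174. With all libraries, the other 9 genes of the set had adjusted p-values from 0.326 to 0.879.

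**Figure D3:**
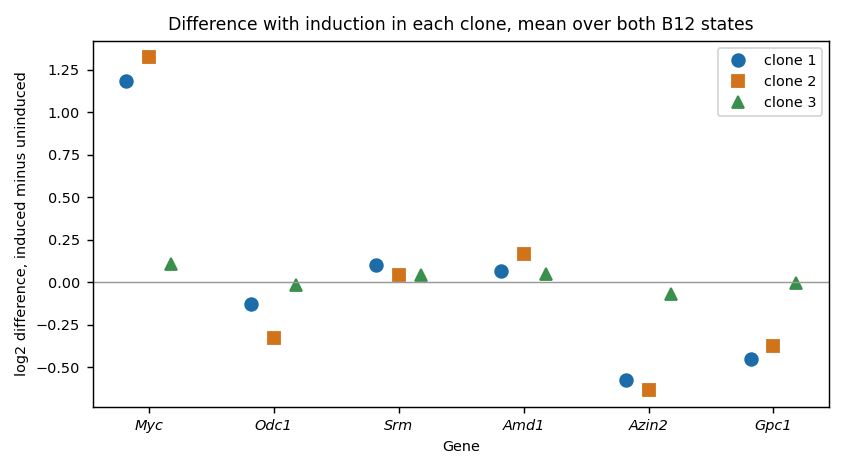
Difference of log2 CPM between induced and uninduced libraries (y axis) in each clone, averaged over both B12 states, for Myc, 3 synthetic enzymes of the set, Azin2 and Gpc1. Myc lies at 1.18, 1.32 and 0.11 for clones 1, 2 and 3, and Odc1 lies below 0 in each. Azin2 and Gpc1 are lower in clones 1 and 2 and near 0 in clone 3.

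The second comparison asked what B12 did in uninduced and in induced cells. Averaged over both states, 1 of 10 genes passed the threshold, against 3.84% of all genes (3.46% higher with B12), and that gene was Sms, which was higher with B12. In uninduced cells 0 of 10 passed (1.38% of all genes) and in induced cells 0 of 10 (1.06% of all genes). At an unadjusted p under 0.05 there were 3, 1 and 2 of 10 genes, against 15.5%, 10.3% and 9.82% of all genes. Of the set, DESeq2 called Sms in the average and in uninduced cells and 0 genes in induced cells. Of all 19174 genes it called 469 in uninduced and 388 in induced cells. The median log2 difference in the average was 0.036 for the set and -0.013 for all genes tested.

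Sms, the enzyme that turns spermidine into spermine, was 13.2, 7.68 and 9.53 CPM in MEF and 15.4, 11.7 and 11.9 CPM in MEF+B12 for clones 1, 2 and 3. In induced cells it was 11.4, 8.94 and 8.17 CPM in OSKM and 12.7, 10.1 and 10.6 CPM in OSKM+B12. It was higher with B12 in 6 of 6 pairs of one clone and state, while the groups overlapped, with clone 1 the highest in each. The averaged log2 fold change was 0.31 ± 0.065 (SE), with a 95% interval of 0.16 to 0.45 and an adjusted p of 0.0233, and the differences within clones 1, 2 and 3 were 0.19, 0.39 and 0.35. In uninduced cells alone it was 0.37 ± 0.091 (adjusted p = 0.0887), and in induced cells alone 0.24 ± 0.092 (adjusted p = 0.412).

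The Sms call held in some settings and not in others. It stood without the OSKM library of clone 1 (log2 0.30, adjusted p = 0.0419) and with the counts of Sms-ps added (log2 0.31, adjusted p = 0.0163). It was lost without clone 2 (log2 0.26, adjusted p = 0.199) or without clone 3 (log2 0.30, adjusted p = 0.200). Without the clone as a replicate block the log2 fold change was 0.29 and the adjusted p 0.787. Over 11 alternative fits the log2 fold change lay within 0.26 to 0.37.

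Markers of macrophages, a cell type that can be carried along in embryo-derived cultures, moved with B12 in the same libraries. Of 15 markers, 13 were higher with B12 in the average over states, with a median log2 difference of 0.56, and none was at 0 in any group. Cx3cr1 had a lower mean with B12, at 5.05 CPM in MEF against 3.64 CPM in MEF+B12. In OSKM its mean was 3.47 CPM, against 2.61 CPM in OSKM+B12. The summed level of the 15 markers was 1539 to 2875 CPM in MEF, 2320.2 to 3782 CPM in MEF+B12, 1559.9 to 2622 CPM in OSKM and 2405 to 3063 CPM in OSKM+B12. Lyz2 had the highest count among them, up to 121689 in a library, against 33679 for the next, Mrc1. Clone 1 had the highest sum in each group, as it had the highest Sms. Of 10 proliferation genes, 2 were higher with B12. The part of either in the Sms difference was not tested, and in bulk RNA a change in the share of a cell type and a change of RNA per cell cannot be told apart.

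**Figure D4:**
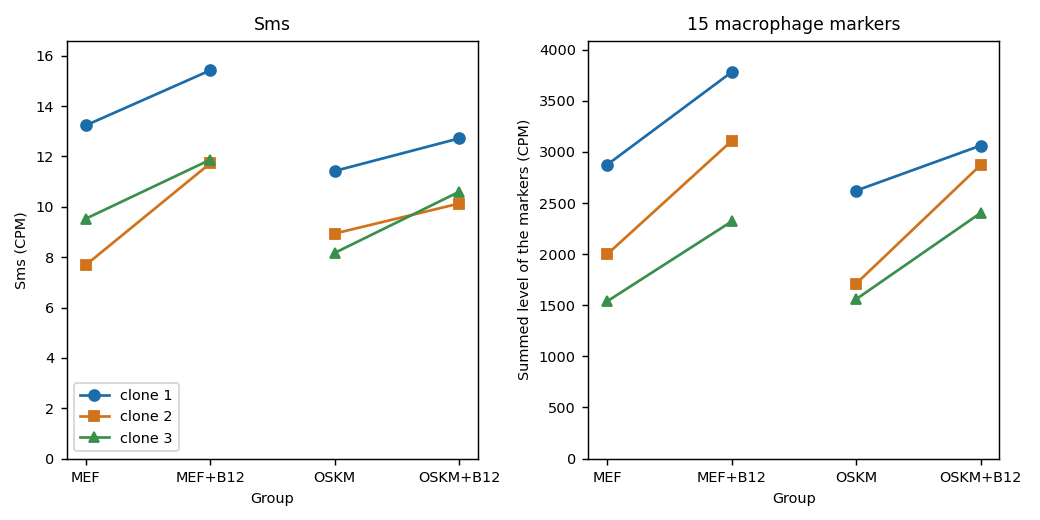
Left, level of Sms in CPM in the 12 libraries. Right, summed level of 15 macrophage markers in CPM in the same libraries. Lines join the libraries of one clone without and with B12, separately for MEF and OSKM. All 6 lines rise in both panels, and clone 1 is the highest line throughout.

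None of the other synthetic enzymes passed the threshold with B12. Odc1 had an averaged log2 fold change of 0.037 ± 0.051 with a 95% interval of -0.074 to 0.15, and Srm 0.025 ± 0.035 with an interval of -0.052 to 0.10. Without the OSKM library of clone 1 these values were 0.059 and 0.055. In uninduced cells Srm was higher with B12 in all clones and its 2 groups did not overlap, at 80.8 to 85.3 CPM in MEF and 85.7 to 89.5 CPM in MEF+B12, but the test gave 0.082 ± 0.049 (adjusted p = 0.654). Amd1 was higher with B12 in 6 of 6 pairs at 0.080 ± 0.033 (adjusted p = 0.269), with its count shared with Amd2 as above. Its 95% interval of 0.0076 to 0.15 did not hold 0.

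Of the 3 regulators, Azin1 had the largest estimate with B12. It was 86.5, 87.9 and 83.6 CPM in MEF+B12 and 79.5, 78.7 and 83.8 CPM in OSKM+B12, and with the values without B12 given above it was higher in 6 of 6 pairs. In induced cells the groups did not overlap, and the log2 fold change was 0.22 ± 0.086 (adjusted p = 0.419). Without the OSKM library of clone 1 that value was 0.095. The average over states was 0.16 ± 0.060, with a 95% interval of 0.028 to 0.29 (adjusted p = 0.218). Oaz1 had 0.071 ± 0.045 and Oaz2 -0.034 ± 0.053. Without that library the averages of Azin1, Oaz1 and Oaz2 were 0.099, 0.033 and -0.091. In uninduced cells Oaz2 was lower with B12 in all clones, at 94.6 to 95.7 CPM in MEF and 86.5 to 91.4 CPM in MEF+B12, without overlap and with a log2 difference of -0.089 ± 0.075 (adjusted p = 0.788).

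Sat1, Mtap and Adi1 gave no call with B12. Sat1 had an averaged log2 fold change of 0.034 ± 0.033 (interval -0.040 to 0.11), Mtap -0.053 ± 0.035 (interval -0.13 to 0.025) and Adi1 -0.0048 ± 0.039 (interval -0.090 to 0.080). The intervals of all 3 genes held 0, and their widest bound was -0.13, for Mtap. Without the OSKM library of clone 1 the estimate was -0.022 for Mtap and 0.0062 for Adi1, where its sign changed. Mtap, with 0.845% of its words shared with other genes, was also the gene of the set whose counts were least exposed to such sharing.

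Of the 42 other pathway genes tested, 1 was higher and 2 were lower with B12 in the average, and 1 was higher in induced cells. Among all genes, 3.84% passed in the average and 1.06% in induced cells. Atp13a2, a lysosomal transporter that exports polyamines to the cytosol, was the one that was higher in both. Its levels were 83.0, 71.0 and 60.4 CPM in MEF and 97.7, 94.1 and 78.6 CPM in MEF+B12, and 67.2, 65.7 and 58.0 CPM in OSKM and 78.5, 87.5 and 79.4 CPM in OSKM+B12. The averaged log2 fold change was 0.35 ± 0.052 (adjusted p = 0.00307), and in induced cells 0.37 ± 0.074 (adjusted p = 0.0458). It was higher with B12 in 6 of 6 pairs, as were the summed macrophage markers, whose part in it was not tested. Ass1, argininosuccinate synthase, which makes the precursor of arginine, fell by 0.21 ± 0.038 on the log2 scale (adjusted p = 0.00910), from 54.1, 60.5 and 55.1 CPM in MEF to 44.5, 54.1 and 51.0 CPM in MEF+B12. Sat2, a relative of Sat1 named here after its values were seen, fell by 0.23 ± 0.056 (adjusted p = 0.0490). The average call for Atp13a2 was lost without clone 2. Its call in induced cells was lost there too, and without clone 3 or the OSKM library of clone 1. The call for Ass1 was lost without any one of the clones. That for Sat2 was lost without any one of the clones or without the OSKM library of clone 1. Each of these calls was also lost with no replicate block. Without clone 2, 34 of all genes passed in the average in place of 736. In uninduced cells 0 of 42 passed in edgeR, with 5 at an unadjusted p under 0.05 and 1 in DESeq2.

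The genes that make SAM, the donor of the aminopropyl group, were tested as Mat2a and Mat2b and gave 0 calls of 2 in edgeR or DESeq2 in either average, with median log2 differences of 0.022 with B12 and 0.062 with induction and 0 and 1 at an unadjusted p under 0.05. Methionine salvage beyond the set gave 0 calls of 8 with B12 in edgeR and DESeq2, with 2 at an unadjusted p under 0.05, and 1 of 8 with induction, the Mri1 value above. For the 4 genes of hypusine synthesis and eIF5A, which use spermidine to modify a translation factor, edgeR made 0 calls with B12 or induction in the averages, with 1 gene at an unadjusted p under 0.05 in each, and DESeq2 made 0 and 1. For the interaction of both, edgeR and DESeq2 called 0 of the 42 genes, with 1 at an unadjusted p under 0.05.

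Whether B12 acted differently in induced and uninduced cells was tested as an interaction. In edgeR, 0 of 10 genes passed, each with an adjusted p of 1, and 0 had an unadjusted p under 0.05. Among all genes 0 passed, which is 0% of 19174, with 273 at an unadjusted p under 0.05, and DESeq2 also called 0. For Sms the difference between the log2 B12 effects (induced minus uninduced) was -0.14 ± 0.13, with a 95% interval of -0.42 to 0.15. For Azin1 it was 0.12 ± 0.12, with an interval of -0.15 to 0.38, and -0.0085 without the OSKM library of clone 1. Differences of the size of the B12 effects averaged over states lay within these intervals, for Sms only below 0 and for Azin1 only above 0. Neither difference could be told from 0 with 3 clones.

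The third comparison was between the clones. Each clone is 1 embryo and its libraries differ in treatment. The p-values therefore measure the spread between libraries and not between embryos. Of the set, 3 of 10 genes differed in level between clones, against 37.8% of all genes. These were the X-linked genes Sms and Sat1, and Adi1 on chromosome 12. The other 7 genes had adjusted p-values from 0.168 to 0.680.

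The pair of X-linked genes went in opposite directions. Over the 4 libraries of a clone, Sms was 13.2 ± 1.67 CPM in clone 1, 9.62 ± 1.72 CPM in clone 2 and 10.0 ± 1.57 CPM in clone 3 (SD, n = 4, adjusted p = 0.00169 by edgeR). Sat1 was 55.1 ± 0.872 CPM in clone 1, 75.1 ± 2.77 CPM in clone 2 and 67.5 ± 2.48 CPM in clone 3 (adjusted p = 5.9e-05 by edgeR). Clone 1 was thus highest for Sms and lowest for Sat1, and for Sat1 its 4 libraries (53.8 to 55.8 CPM) did not overlap with those of clone 2 (71.2 to 77.3 CPM) or clone 3 (65.1 to 70.7 CPM). Xist, the RNA of the silenced X chromosome, was 0.0147 to 0.0289 CPM in clone 1, 219 to 278 CPM in clone 2 and 226 to 350.3 CPM in clone 3, so that sex, as read from Xist, differed between clones and cannot be told apart from clone or title year.

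Adi1 was 17.5 ± 1.12 CPM in clone 1, 20.1 ± 1.33 CPM in clone 2 and 22.2 ± 0.390 CPM in clone 3 (SD, n = 4, adjusted p = 0.000721 by edgeR). Its clones did not overlap, at 16.0 to 18.6 CPM, 18.7 to 21.4 CPM and 21.8 to 22.7 CPM. All 3 calls were lost without clone 1, in a fit where 1315 of all genes passed in place of 7239. Between clones 2 and 3 alone the adjusted p by edgeR was 0.628 for Sms, 0.0941 for Sat1 and 0.105 for Adi1. The unadjusted p was 0.358 for Sms, 0.0101 for Sat1 and 0.0122 for Adi1. For Sat1 and Adi1 the libraries of clones 2 and 3 did not overlap.

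**Figure D5:**
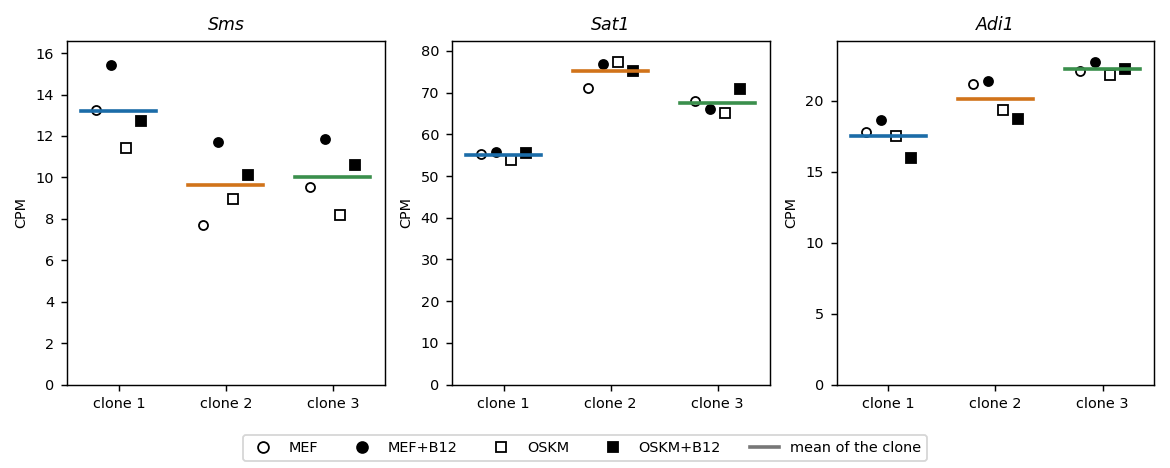
Levels of Sms, Sat1 and Adi1 in CPM (y axes from 0) in the 4 libraries of each clone, with open symbols without B12, filled symbols with B12, circles for MEF and squares for OSKM, and a line at the mean of the clone. Clone 1 is high for Sms (13.2 CPM) and low for Sat1 (55.1 CPM) and Adi1 (17.5 CPM).

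In the other pathway genes, 22 of 42 differed in level between clones, against 37.8% of all genes. The strongest was Slc7a2, a transporter of arginine and ornithine, at 35.9 ± 0.433 CPM in clone 1, 51.5 ± 4.79 CPM in clone 2 and 68.3 ± 4.18 CPM in clone 3 (SD, n = 4, adjusted p = 3.55e-06 by edgeR). It passed in each alternative fit, including those that left out a clone. Azin2 was 52.5 ± 12.3 CPM in clone 1, 96.3 ± 24.1 CPM in clone 2 and 101 ± 3.49 CPM in clone 3 (adjusted p = 0.000145 by edgeR). Clone 1 was the lowest for both transporter and inhibitor. The Myc antagonist Mnt, the eIF5A relative Eif5a2 and the hypusine enzyme Dhps were also lowest in clone 1, with means of 34.2, 8.21 and 16.3 CPM. Of the transport genes, Atp13a3, an importer of polyamines, and Cav1, caveolin 1, were lowest in clone 1 and highest in clone 3, with means of 80.1 and 97.2 CPM for Atp13a3 and 178 and 215 CPM for Cav1. Mxd3, another Max partner, was highest in clone 1 at 8.30 CPM. Without clone 1, where 1315 of all genes passed, the call of each gene named here except Slc7a2 was lost. Those of Atp13a3 and Cav1 were also lost without clone 3.

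The genes with the profile nearest to the 3 most variable members were found as the smallest root mean square distance between centred log2 CPM over the 12 libraries, among 14679 protein-coding genes. For Sms they were Glrx, Rhbdf2 and Grk2, at distances of 0.086, 0.091 and 0.11 against a median of 0.32 over all genes searched. For Sat1 they were Aacs, Fdps and Tmem126a (0.053 to 0.057, median 0.25). For Adi1 they were Rnf6, Camk2d and Tmem173 (0.047 to 0.049, median 0.22). None of these genes belongs to the pathway lists, and all 12 points of a profile share clones and libraries.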

How the data were processed

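Poly(A) directional libraries of 12 cultures were sequenced as read pairs. The deposited table holds unnormalised counts, which the authors made by aligning reads to mm10 with STAR 2.5.2 and counting with featureCounts, reverse stranded, per the study's methods and processing notes. Of 55573 rows, 55480 matched GENCODE M21. Members and gene lists were chosen with earlier results of these data known. Counts were fitted here with edgeR 4.0.16 (R 4.3.3; TMM scaling, filterByExpr, 19174 genes) as group plus clone, with quasi-likelihood tests and Benjamini-Hochberg adjustment over all genes (threshold 0.05). Clones were used as a block because each is 1 embryo: deviations of libraries from their group means correlated at 0.270 to 0.687 in all 18 same-clone pairs and at most 0.170 in 36 others. Depth was 56971244 to 79236795 counts per library and limits Sms most. Pathway genes were named by the 12 smallest adjusted p-values among those called. Alternatives were DESeq2 1.42.0, DESeq2 size factors, library totals, no filter, at least 10 counts in every library, only the libraries compared, no block and libraries left out. Adding the counts of the gene sharing most sequence was chosen after seeing the data. Scripts were tested on simulated data.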

Additional observations from a re-analysis of the deposited data

Results flagged for a closer look

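A difference between the clones in the response to induction was tested directly. It was found for 3 of 42 genes of the pathway lists and for 0 members of the set in edgeR (2 at an unadjusted p under 0.05). Among all genes, 2.15% passed. Myc, the factor gene, was higher after induction by log2 1.18, 1.32 and 0.11 in clones 1, 2 and 3 (adjusted p = 0.000653 for the difference between clones). Gpc1, a glypican, differed by -0.45, -0.38 and -0.0054 (adjusted p = 0.0181). Azin2, an antizyme inhibitor, differed by -0.58, -0.63 and -0.070 (adjusted p = 0.0469). In all 3 genes clones 1 and 2 lay on one side and clone 3 near 0, and without clone 3 the adjusted p was 0.87, 0.89 and 0.95. Azin2 also missed the threshold with library totals, with at least 10 counts in every library and without clone 2 (adjusted p = 0.095, 0.052 and 0.087).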

How the results depend on the processing

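No call changed direction. Of 810 alternative log2 fold changes of members, 31 had the opposite sign, 0 of them past the threshold in either fit, and their values in the reported fits were within 0.12 of 0. Of 1010 alternative values for the 10 members, 983 kept a call or, where there was none, moved by less than 1 SD of the differences between clones (for tests of clone differences, stayed on their side of the threshold), and of 350 for calls of pathway genes, 97 fell below the threshold. For induction averaged over B12, DESeq2, library totals and no filter each gave 1 member (Odc1, Amd1 and Odc1) in place of 0, and leaving out a clone gave 0 to 2 (Odc1 and Azin1 without clone 3). For B12 in uninduced cells, DESeq2, no filter and only the libraries compared gave 1 in place of 0, each time Sms (adjusted p = 0.0169, 0.0340 and 0.0381). Of all genes, 469, 425 and 845 passed in those fits in place of 264. For B12 averaged over states, the fit with no replicate block gave 0 in place of 1 (Sms, log2 0.29, adjusted p = 0.787), and leaving out a clone gave 0 to 1 (0 without clone 2 or clone 3). For the clone difference in induction, leaving out the OSKM library of clone 1 gave 1 (Odc1) in place of 0, and leaving out a clone gave 0 to 1 (Odc1 without clone 1). For the clone difference in level, leaving out a clone gave 0 to 3 (0 without clone 1). The block changed no other call of a member. Over all genes, leaving out a clone gave 3 to 3056 in place of the 1865 induction calls in the average, 34 to 525 in place of the 736 B12 calls, 0 to 724 in place of the 413 clone differences in induction and 1315 to 5425 in place of the 7239 clone differences in level. Over all alternatives the counts were 0 to 1322 in place of 14 for induction without B12, 0 to 1004 in place of 20 with B12, 0 to 388 in place of 204 for B12 in induced cells, 0 to 845 in place of 264 in uninduced cells, 0 to 3056 for induction averaged, 34 to 934 for B12 averaged and 0 to 1257 for clone differences in induction. The cause of these changes was not tested. With 3 clones per group, no member with a difference near 0.1 on the log2 scale passed the adjusted threshold in the reported fits. The unadjusted intervals of some, such as Amd1 and Adi1 with induction averaged over B12, did not hold 0. Those of others, such as Oaz1 with B12 in induced cells, did. Sms, at 486 counts in its lowest library, had the lowest depth of the set.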
